A study of Mus musculus with 3 samples.

Results

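The 8 genes described here are the growth arrest genes Gadd45a, Gadd45b and Gadd45g, the antiproliferative genes Btg1 and Btg2, and the mRNA decay genes Zfp36, Zfp36l1 and Zfp36l2. They were chosen by family, with earlier results of these data known, and found by symbol, 8 of the 25562 genes in the count tables. Other genes of these families, such as Btg3 and Btg4, are not among the 8. RNA was sequenced from cultured mouse neurons of the medial ganglionic eminence (MGE), where most inhibitory interneurons of the cortex are born, taken at E14 from C57Bl/6 mice and titled as wild type. All 3 cultures were silenced from day 9 in vitro overnight with the sodium channel blocker TTX and the NMDA receptor antagonist AP-5, and harvested on day 10. One library was unstimulated (0 h), and the others were depolarized with 55 mM KCl for 1 h or 6 h. Each time has 1 library, so no difference below has a replicate check, and each interval is a 95% exact counting interval that covers counting error only. The sources used here do not say how many embryos or cultures went into a library.

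GADD45 proteins are small acidic proteins without enzyme activity that bind other proteins, among them a kinase upstream of p38, the DNA replication clamp PCNA and the cell cycle kinase Cdk1. In neurons, Gadd45b is known as an activity-induced gene linked to DNA demethylation. BTG proteins bind the deadenylases of the CCR4-NOT complex, which shorten the poly(A) tails of mRNAs. ZFP36 proteins bind AU-rich elements in the 3′ ends of short-lived mRNAs and bring the same complex to them. Many genes of the 3 families are themselves quickly induced and have short-lived mRNAs.

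The libraries held 8996897 uniquely mapped reads at 0 h, 8549377 at 1 h and 8579378 at 6 h, of which 2189394, 2457167 and 2480579 were sense reads in exons. All 10 MGE interneuron markers had at least 20 exonic reads in 1 library, and summed to 4746, 4541 and 6190 scaled RPM (sense exonic reads per 1000000, after TMM scaling) at 0, 1 and 6 h. All 8 astrocyte and radial glia markers were also measured, at 2271, 2391 and 2545 scaled RPM, so markers of cells other than neurons were present. Of 7 microglia markers 5 had no read in any library, and Slc17a7, a transporter of excitatory cortical neurons, had 0, 1 and 0 reads. None of the 10 MGE markers or the 8 of astrocytes and radial glia differed at least 2-fold between any pair of libraries. Of 7 oligodendrocyte lineage markers 5 were measured, and at 6 h against 0 h Olig2 had a ratio of 2.04 (1.45–2.92; 1.91 with scaling by total exonic reads) and Pdgfra one of 0.452 (0.307–0.657). In such mixed cultures, fewer cells of a type and less RNA per cell cannot be told apart.

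The upstream sequences of the 4 genes that were higher at 1 h are shown because a cyclic AMP response element (CRE), the site bound by the activity-regulated factor CREB, is known from many depolarization-induced genes. RefSeq promoter windows were found for 7 of the 8 genes, in build GRCm38.p6, and were used for sequence only, since the counts rest on mm9. Each line gives the 250 bases before the start of the gene, 5′ to 3′ on the gene's strand, with matches to the motifs searched in capitals.
Btg2: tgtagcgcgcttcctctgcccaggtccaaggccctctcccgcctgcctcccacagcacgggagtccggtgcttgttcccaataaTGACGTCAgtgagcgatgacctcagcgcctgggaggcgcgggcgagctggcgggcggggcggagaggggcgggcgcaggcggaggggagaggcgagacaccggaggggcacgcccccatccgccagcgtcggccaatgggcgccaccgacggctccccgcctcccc
Btg1: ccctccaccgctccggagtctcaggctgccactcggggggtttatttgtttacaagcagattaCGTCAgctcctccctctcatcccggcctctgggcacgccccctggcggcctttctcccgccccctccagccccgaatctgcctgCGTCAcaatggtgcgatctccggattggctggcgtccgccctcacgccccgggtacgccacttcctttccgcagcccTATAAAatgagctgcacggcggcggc
Gadd45b: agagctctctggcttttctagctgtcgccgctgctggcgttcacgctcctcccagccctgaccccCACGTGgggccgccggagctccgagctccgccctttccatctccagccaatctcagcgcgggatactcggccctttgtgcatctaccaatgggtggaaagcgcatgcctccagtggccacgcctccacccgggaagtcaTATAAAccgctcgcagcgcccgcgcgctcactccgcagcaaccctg
Gadd45g: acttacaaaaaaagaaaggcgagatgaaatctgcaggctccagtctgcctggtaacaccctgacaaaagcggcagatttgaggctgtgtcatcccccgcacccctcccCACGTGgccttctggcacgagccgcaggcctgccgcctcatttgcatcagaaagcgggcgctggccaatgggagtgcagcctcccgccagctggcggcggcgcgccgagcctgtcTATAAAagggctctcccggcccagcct
The windows are chr1:134079156-134079405 on the minus strand for Btg2, and chr10:96616751-96617000, chr10:80929841-80930090 and chr13:51846425-51846674 on the plus strand for Btg1, Gadd45b and Gadd45g.

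All 6 motifs were searched on both strands of these windows. The full CRE, TGACGTCA, was in the window of Btg2, from 166 to 159 bases before the start, and in 1.55% of all 32851 windows of this length. Its shorter core, TGACG, was in 17.8% of windows. Btg1 held it at 187 to 183 and at 103 to 99 bases before the start, and those of Btg2 lie inside its full CRE. An E-box, CACGTG, was in the windows of Gadd45b and Gadd45g, and in 6.02% of all windows. A TATA motif, TATAAA, lay 46 to 41 bases before the start of Gadd45b, 27 to 22 before that of Gadd45g, 26 to 21 before that of Btg1 and 29 to 24 before that of Zfp36l1, against 12.4% of all windows. Zfp36 held a CArG box, the site of serum response factor, 58 to 49 bases before its start (1.47% of windows). Zfp36l1 held an AP-1 site, TGANTCA, 129 to 123 bases before its start (6.75% of windows). These matches are letters in the reference sequence, and binding was not measured in these libraries.

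After 1 h of KCl, Btg2, Gadd45b, Gadd45g and Btg1 were at least 2-fold higher than in the silenced culture, and none of the 8 genes was at least 2-fold lower. Here and below, at least 2-fold means a ratio of 2 or more, or 0.5 or less, whose interval excludes 1, with 20 reads or more in 1 of the 2 libraries. By this rule 1.58% of the 10093 genes measured in this comparison were higher and 1.43% were lower. Because the 8 genes were chosen with earlier results known, these shares are given for scale and do not test the families. Of the 8 genes 5 had the 20 reads that the rule asks for in this comparison. Gadd45b, with 7 reads at 0 h and 52 at 1 h, reached them through its 1 h reads alone. Ranked by the lower bound of the ratio among the 10093 genes, Btg2 stood at 20, Gadd45b at 25, Gadd45g at 34, Btg1 at 114 and Zfp36l2 at 5770.

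Btg2, an antiproliferative gene known as an immediate early gene and p53 target, gave the most reads. It lies at chr1:135971442-135975732 on the minus strand (mm9), with 2 exons of 3083 bp in all, 81.2% of it 3′ UTR. Its exons held 53 reads at 0 h, 345 at 1 h and 43 at 6 h, or 23.7, 137 and 18.1 scaled RPM. The 1 h library thus stood high and the other two lay close together. The level at 1 h was 5.81-fold that at 0 h (4.34–7.91), and at 6 h it was 7.57-fold lower than at 1 h (5.50–10.6). The 6 h level was 0.767 of the 0 h level, with an interval (0.501–1.17) that includes 1.

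Btg1, the paralog of Btg2, lies at chr10:96079661-96082261 on the plus strand, with 2 exons of 1798 bp. It held 37, 85 and 47 exonic reads, or 16.5, 33.8 and 19.8 scaled RPM at 0, 1 and 6 h. Its level at 1 h was 2.05-fold that at 0 h (1.38–3.10), and it passed the 2-fold rule by a small margin: with coding reads alone, an alternative added after the data were seen, the ratio was 1.78 (1.09–2.98), and 3 of the 8 genes were higher by the rule, against 1.77% of all genes. The index of mappable sequence that comes with the counts is 0.356 for Btg1, against a median of 0.938 over 10307 measured genes, and 14.4% of those genes lie below 0.8. Reads that fit several places in the genome were not counted, so the count of Btg1 is uncertain. At 6 h its level was 1.71-fold lower than at 1 h (1.18–2.49) and 1.20-fold that at 0 h (0.764–1.90).

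The change of Btg2 from 0 h to 1 h was larger than that of Btg1, by a factor of 2.83 (1.69–4.70), and from 1 h to 6 h the ratio of Btg1 to Btg2 went up 4.42-fold (2.67–7.34). These factors come from the split of both genes' reads between the libraries and need no scaling. Over all 7 pairs within families and 3 comparisons, these 2 of 21 intervals excluded 1, with no adjustment for the number of pairs. Related to them are Tob1 and Tob2, which also bind the CCR4-NOT deadenylases. Tob1 had 114, 386 and 120 reads and was 3.02-fold higher at 1 h (2.44–3.75) and 3.03-fold lower at 6 h than at 1 h (2.47–3.76). Tob2 had 46, 102 and 66 reads, with a ratio of 1.98 at 1 h (1.38–2.87), just under the 2-fold rule. Btg3 and Btg4 had no read in any library, and for Btg3 the mappability index was 0.0314.

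Gadd45b, at chr10:80392836-80394949 on the plus strand with 4 exons of 1266 bp, had the largest ratio of the 8 genes at 1 h, though from few reads. Its exons held 7, 52 and 11 reads, or 3.12, 20.7 and 4.64 scaled RPM. The level was 6.63-fold higher at 1 h than at 0 h (3.0–17.3), and 4.46-fold lower at 6 h than at 1 h (2.30–9.48). At 6 h it was 1.49-fold that at 0 h, with an interval of 0.526–4.52.

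Gadd45g, a relative known for roles in neural development, lies at chr13:51942062-51943844 on the plus strand, with 4 exons of 1063 bp. It held 21, 96 and 16 exonic reads, or 9.37, 38.2 and 6.75 scaled RPM. Its ratio was 4.08 at 1 h (2.52–6.89), and the level at 6 h was 5.66-fold lower than at 1 h (3.31–10.3). From 0 h to 1 h, Gadd45b changed 1.62-fold as much as Gadd45g, with an interval of 0.612–4.82, so these reads do not tell the 2 genes' changes apart.

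Gadd45a, the family member best known as a p53 target after DNA damage, lies at chr6:66985090-66987401 on the minus strand, with 4 exons of 1224 bp. It had 3, 8 and 5 exonic reads, or 1.34, 3.18 and 2.11 scaled RPM, and never reached the 20 reads that the rule asks for. Its ratio at 1 h was 2.38, with an interval from 0.571 to 13.9. The antisense strand of its exons held 5, 3 and 2 reads, a number close to that on the sense strand. At this depth a change of Gadd45a was not detectable.

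None of the 3 Zfp36 genes met the 2-fold rule in any comparison, and Zfp36 and Zfp36l1 had too few reads to meet it. Zfp36, which encodes tristetraprolin and is known as a growth factor-induced gene, lies at chr7:29161803-29164247 on the minus strand, with 2 exons of 1765 bp. It held 2, 9 and 2 reads, or 0.892, 3.58 and 0.844 scaled RPM, and its ratio at 1 h was 4.01 with an interval from 0.831 to 38.2. As a floor, 3 reads were set as the limit for a count of 0, or 1.34, 1.19 and 1.27 scaled RPM at 0, 1 and 6 h. This floor is a fixed number of reads and not 1 of the exact intervals. Zfp36 was under it at 0 h and 6 h.

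Zfp36l1, at chr12:81208747-81214000 on the minus strand with 2984 bp of exon, held 10, 17 and 18 reads, or 4.46, 6.77 and 7.60 scaled RPM. Its mappability index is 0.402, so its count is uncertain too. Its ratio was 1.52 at 1 h (0.656–3.71) and 1.70 at 6 h (0.745–4.13). Zfp36l2, at chr17:84583264-84587287 on the minus strand with 3537 bp of exon, was the best measured of the 3 (mappability index 0.745), with 31, 41 and 37 reads or 13.8, 16.3 and 15.6 scaled RPM. Its ratio was 1.18 at 1 h (0.722–1.95) and 1.13 at 6 h (0.681–1.88). With coding reads alone (13, 14 and 7) the ratio at 6 h was 0.509 (0.172–1.37), so its direction at 6 h depends on the reads used. With read counts scaled by uniquely mapped reads the upper bounds were 2.30 and 2.09.

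**Figure D1:**
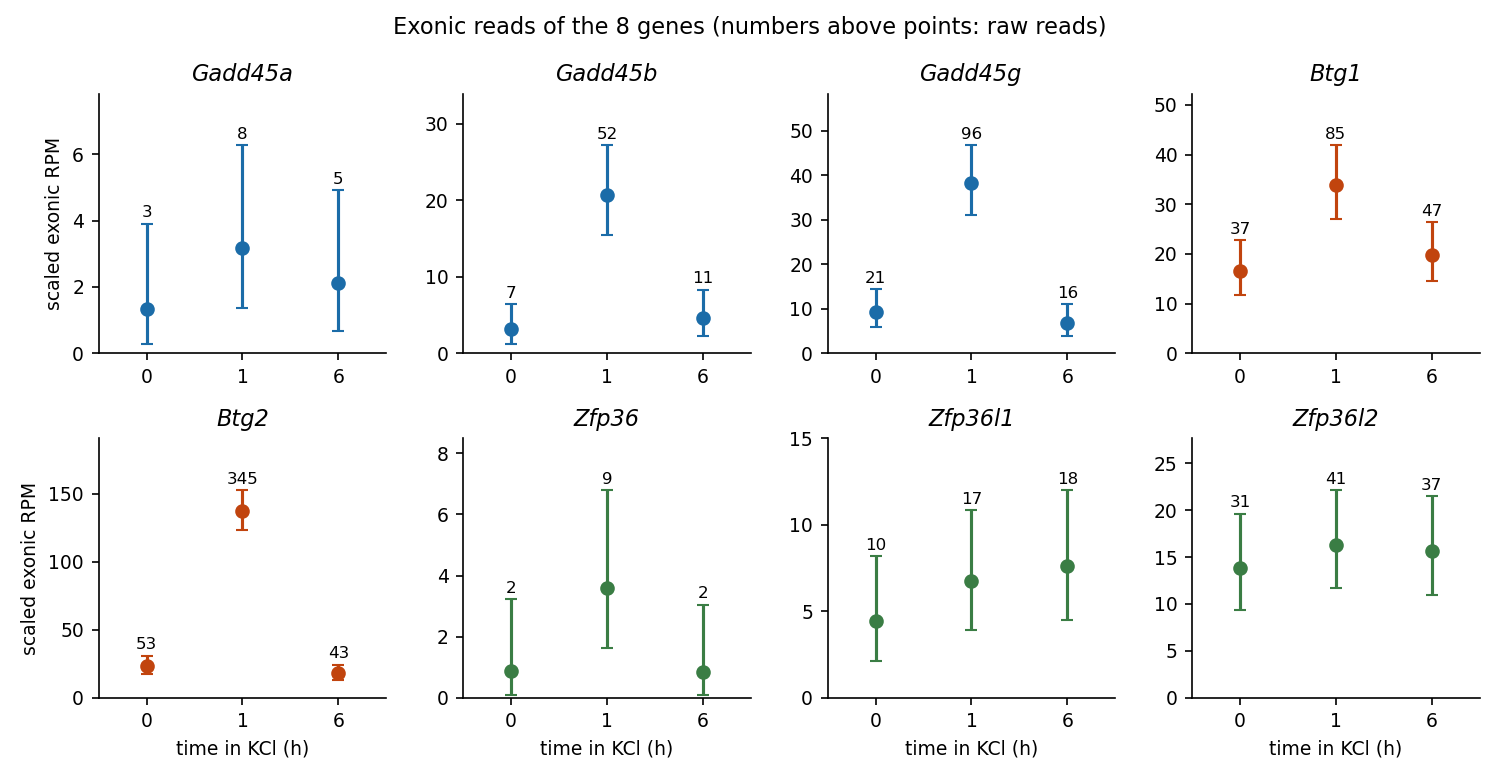
Scaled exonic RPM for each of the 8 genes at 0, 1 and 6 h of KCl, 1 library per time, with exact 95% counting intervals and the raw reads printed above. Btg2, Gadd45b, Gadd45g and Btg1 are highest at 1 h, while Gadd45a and Zfp36 rest on fewer than 10 reads in every library.

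From 1 h to 6 h, 3 of the 8 genes, Btg2, Gadd45g and Gadd45b, were at least 2-fold lower, against 4.63% of the 10137 genes measured in that comparison. None was higher, against 4.17%. In that comparison 5 of the 8 had enough reads. Gadd45b and Gadd45g, with 11 and 16 reads at 6 h, had enough through their 1 h reads alone. For the remaining genes the intervals of the ratio from 1 h to 6 h were 0.171–2.30 for Gadd45a, 0.0248–1.14 for Zfp36, 0.546–2.32 for Zfp36l1 and 0.597–1.53 for Zfp36l2. In the comparison of 6 h against 0 h, Gadd45g, Btg1, Btg2 and Zfp36l2 were the 4 of the 8 genes with enough reads. Gadd45g had enough through its 21 reads at 0 h alone. None of these 4 was at least 2-fold higher or lower, where 4.92% of 10095 genes were higher and 5.42% lower. Gadd45b, with 7 and 11 reads, Gadd45a, Zfp36 and Zfp36l1 did not reach 20 reads there and could not meet the rule. The 3 comparisons share libraries and are not independent of each other. Across the 8 genes the median log2 ratio was 1.44 at 1 h against 0 h, from 0.23 to 2.64, with 8 of 8 above 0. For Gadd45a, Zfp36, Zfp36l1 and Zfp36l2 the interval of the 1 h ratio included 1, so their direction is uncertain. The median was 0.22 at 6 h against 0 h, with 5 of 8 above 0, and -1.30 at 6 h against 1 h, with 1 of 8 above 0. Over 12526 genes with 10 reads or more in all, the same medians were -0.00, -0.03 and -0.00. Of those genes 49.6%, 48.3% and 50% were above 0. The 8 genes were not an unselected set, so this contrast describes them only.

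**Figure D2:**
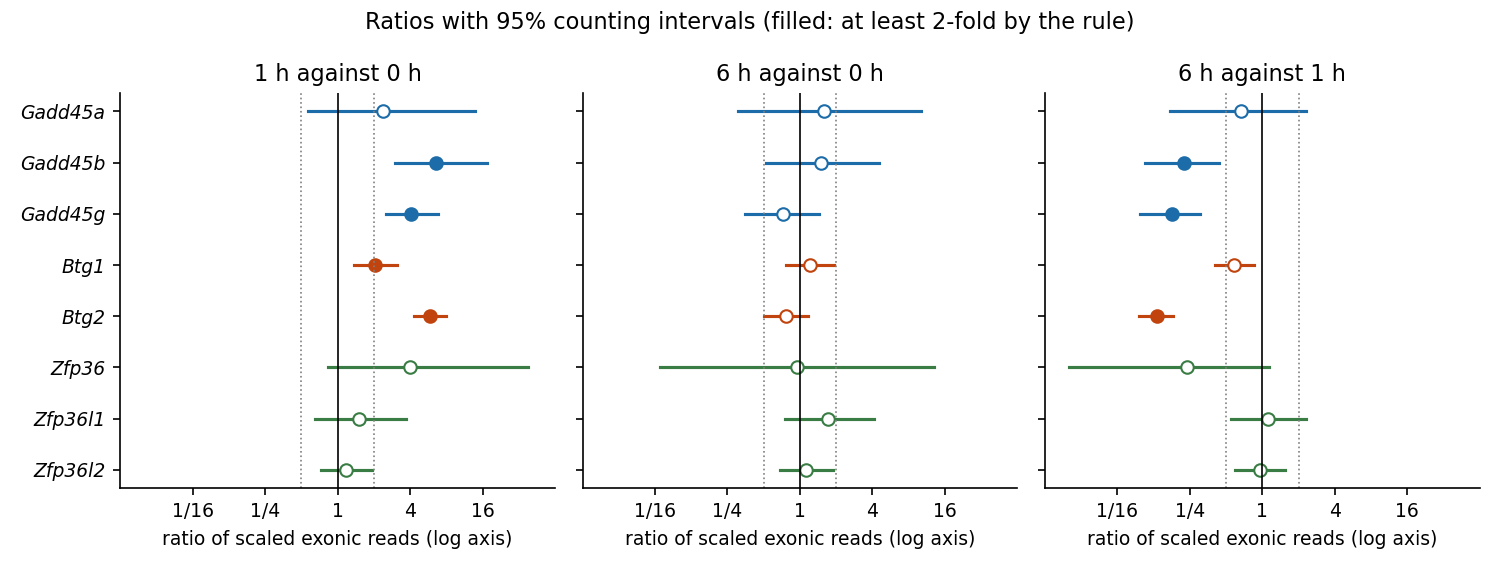
Ratios of TMM-scaled exonic reads between each pair of libraries on a log axis, with 95% counting intervals; filled points are at least 2-fold by the rule, and dotted lines mark 2-fold. At 1 h against 0 h 4 genes are filled on the high side, at 6 h against 0 h none is filled (4 of the 8 had enough reads), and at 6 h against 1 h 3 are filled on the low side.

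Btg1 had the highest estimated level of the 8 genes in every library when reads were set per kilobase of mappable exon. Its level in scaled RPKM (RPM per kilobase of exon) was 25.8 at 0 h (18.2–35.6), 52.9 at 1 h (42.2–65.4) and 31.0 at 6 h. At 0 h it was followed by Gadd45g at 8.96 (5.55–13.7) and Btg2 at 7.78 (5.82–10.2), whose intervals overlap. Zfp36l2 at 5.25, Zfp36l1 at 3.72, Gadd45b at 2.53, Gadd45a at 1.12 and Zfp36 at 0.508 came next, each with an interval that overlaps that of the next. At 1 h Btg2 at 45.1 (40.5–50.2) overlapped Btg1 and also Gadd45g at 36.5 (29.6–44.6), and Gadd45b at 16.8 (12.5–22.0) lay apart below them. Zfp36l2 stood at 6.19, Zfp36l1 at 5.64, Gadd45a at 2.66 and Zfp36 at 2.04. At 6 h Gadd45g at 6.46, Zfp36l1 at 6.33, Btg2 at 5.97 and Zfp36l2 at 5.92 were close together, with Gadd45b at 3.76, Gadd45a at 1.76 and Zfp36 at 0.480 below, and each of these overlapped the next. At 1 h the first place of Btg1 rests on the correction for mappability: without it, Btg2 had 44.5, Gadd45g 35.9 and Btg1 18.8. The correction divides by 1 index for the whole gene, 0.356 for Btg1, whereas its first exon alone has an index of 1.01. For the first exon of Gadd45g the index is 1.06, so it is not a plain share of mappable bases. Without it Btg1 was still first at 0 h, at 9.18 beside 8.82 for Gadd45g and 7.67 for Btg2, and at 6 h, at 11.0 beside 6.35 and 5.89. For scale, the median of 10311 measured genes, uncorrected, was 15.2, 15.3 and 15.0 at 0, 1 and 6 h.

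**Figure D3:**
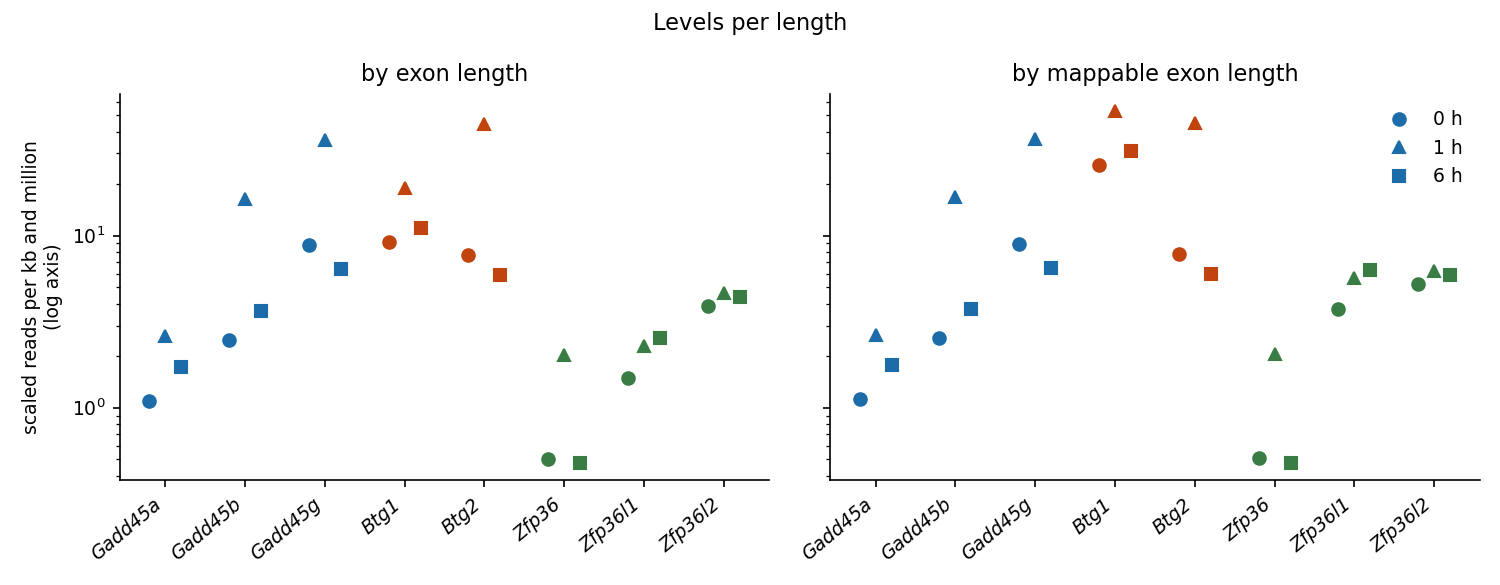
Scaled RPKM on a log axis for the 8 genes at 0 h (circles), 1 h (triangles) and 6 h (squares), by exon length on the left and by mappable exon length on the right. Btg1 and Zfp36l1 move up with the correction, and Btg1 then has the highest level at each time.

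Intronic reads, which come mostly from RNA that is not yet spliced, were also most numerous at 1 h in Btg2. Its intron held 8, 41 and 12 sense reads, a ratio of 4.57 at 1 h against 0 h (2.12–11.3) and of 1.42 at 6 h against 0 h (0.533–4.0). At 1 h 2.59% of 8143 genes were at least 2-fold higher and 27.2% were at least 2-fold lower. From 1 h to 6 h it was 3.22-fold lower (1.66–6.73), against 2.65% of genes. From 0 h to 1 h the exonic reads changed 1.27 times as much as the intronic reads (0.487–2.94), an interval that includes 1, whereas 36.1% of genes had one wholly above 1. From 1 h to 6 h, the odds of an exonic rather than an intronic read were 0.427 of what they were (0.201–0.962), a shift in that direction that 26.7% of genes showed. The other introns held few reads: Btg1 had 4, 11 and 6, Zfp36l1 3, 10 and 6, Gadd45g 1, 4 and 2, and Gadd45b 0, 4 and 3. Gadd45a, Zfp36 and Zfp36l2 had at most 3 intronic reads in any library.

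The coding region and the 3′ UTR of Btg2 differed in how far they were lower at 6 h. The coding region held 18, 93 and 20 reads and the 3′ UTR 33, 231 and 21. From 1 h to 6 h the coding reads were 4.39-fold lower (2.68–7.51) and the 3′ UTR reads 10.4-fold lower (6.63–17.1), a difference of 2.36-fold (1.15–4.81). Of the 6 genes with enough reads for this comparison, Btg2 was the 1 whose 3′ UTR share was lower, against 2.76% of 8108 genes. In Gadd45g the coding reads were 6, 32 and 7 and the 3′ UTR reads 13, 41 and 3, and the odds ratio of 0.339 had an interval (0.0524–1.63) that includes 1. Over all genes the ratio of 3′ UTR to coding reads was 0.568, 0.571 and 0.610. From 0 h to 1 h the same odds ratio for Btg2 was 1.35 (0.682–2.62). Reads per distinct position were 2.60 at 1 h and 2.33 at 6 h over each library, and their part in this difference was not tested.

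**Figure D4:**
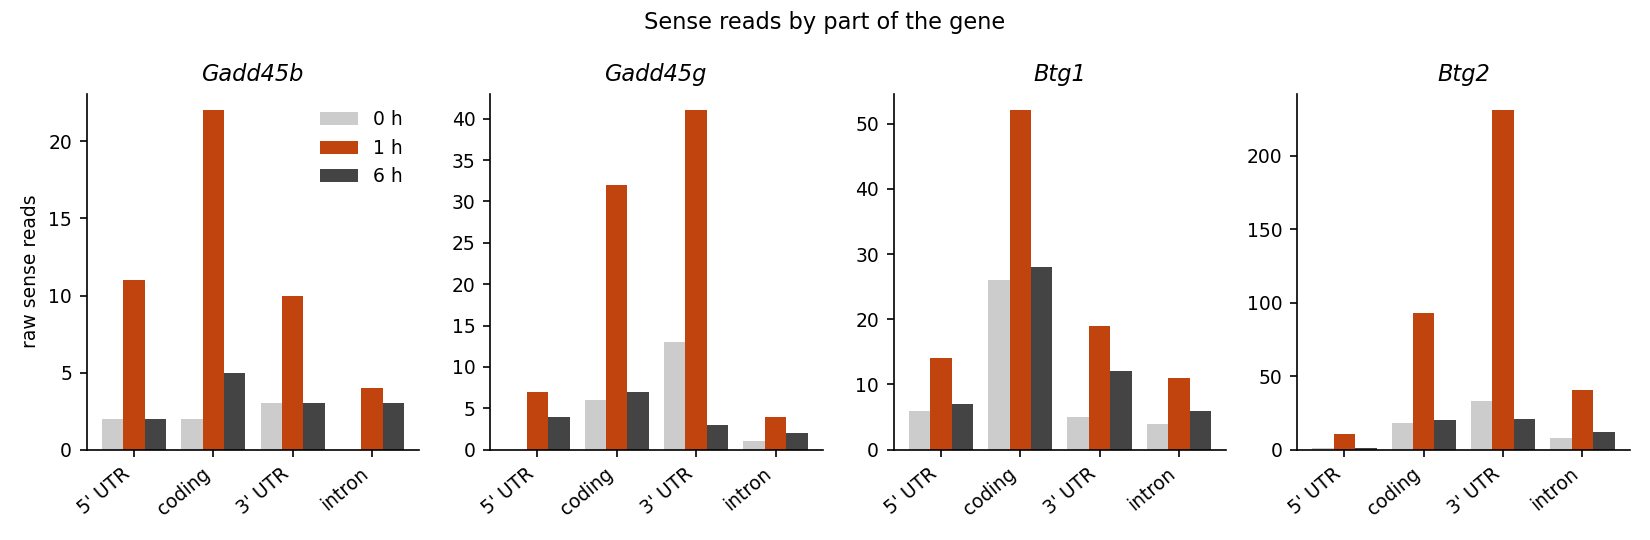
Raw sense reads in the 5′ UTR, coding region, 3′ UTR and introns of Gadd45b, Gadd45g, Btg1 and Btg2 at 0 h (light), 1 h (orange) and 6 h (dark). In Btg2 the 3′ UTR bar stands highest at 1 h, at 231 reads, and all parts of the 4 genes are highest at 1 h.

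At the 5′ end, the first exon of Gadd45g, 140 bp long, held 1, 26 and 5 reads, while its last exon held 16, 56 and 6. The odds of a read in the first rather than the last exon were 7.33-fold higher at 1 h than at 0 h (1.03–323), a shift that 3.15% of the 3462 genes measured showed. Of the 4 genes with enough reads for this comparison, Gadd45g was the 1 whose interval excluded 1, and it did so on a single read at 0 h. The first exon of Gadd45b held 2, 19 and 3 reads and its last 3, 11 and 4, with an odds ratio of 2.52 (0.248–34.5). Btg2 had 6, 34 and 6 reads in its first exon and 46, 306 and 37 in its last. Reads across an exon junction were few: Btg1 had 3, 7 and 6, Btg2 1, 5 and 0, Gadd45g 2, 4 and 0, and Gadd45b 0, 3 and 0.

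The genes with the most similar pair of log2 ratios (1 h and 6 h against 0 h, over 3 libraries, at least 100 reads) were found by Euclidean distance. The distances take no account of counting error, which is wide for some of these genes. The ratio of Gadd45g at 1 h had an interval of 2.52–6.89, and that of Gadd45b at 6 h one of 0.526–4.52. The order of the neighbours is therefore uncertain. For Gadd45g the nearest of 8541 genes was Btg2, at a distance of 0.53, followed by Jun, a subunit of AP-1, at 0.60, and Tob1 at 0.61. The 3 nearest to Btg2 included Gadd45g and, at 0.97, Dusp1, a phosphatase of MAP kinases. Those of Gadd45b included Dusp1 at 0.51 and Erf, a transcriptional repressor of the ETS family, at 0.91. Those of Btg1 included B3galt2, a galactosyltransferase, at 0.06, and 0610011F06Rik at 0.08. B3galt2 had 90, 211 and 118 reads at 0, 1 and 6 h, and Jun had 268, 792 and 204.

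**Figure D5:**
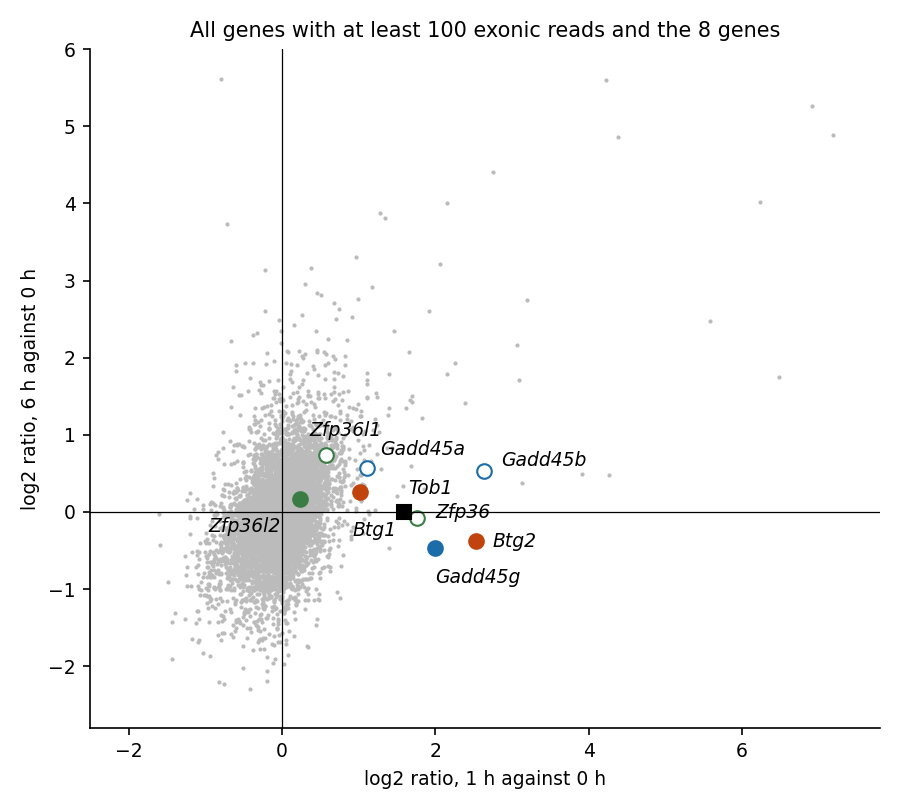
Log2 ratios of all genes with at least 100 exonic reads at 1 h (x axis) and 6 h (y axis) against 0 h in grey, with the 8 genes and Tob1 (square) marked; open circles have fewer than 100 reads. Btg2, Gadd45g and Gadd45b lie far right of most genes and near 0 on the y axis.

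Most partners of these genes in mRNA decay did not meet the 2-fold rule, and neither did most genes. At 1 h against 0 h 1.58% of all genes were higher and 1.43% lower. The shares were 4.92% and 5.42% at 6 h against 0 h, and 4.17% and 4.63% at 6 h against 1 h. With such shares, few or no calls in lists this short do not set them apart from other genes. Of 19 genes of the BTG and TOB family and the CCR4-NOT and PAN deadenylases 16 were measured, and Tob1 was the 1 that passed, at 1 h against 0 h and at 6 h against 1 h. Of 12 genes for decapping and 5′ to 3′ decay all were measured, and none passed at 1 h. Dcp1b, a subunit of the decapping complex, had 42, 49 and 19 reads and was 2.34-fold lower at 6 h than at 0 h (1.33–4.26) and 2.43-fold lower than at 1 h (1.41–4.37). Of 14 other proteins that bind AU-rich elements 13 were measured, and none passed in any comparison. The median log2 ratios of these 3 lists at 1 h were -0.03, -0.11 and -0.06, beside 0.01 over all measured genes.

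Transcripts with known AU-rich elements, the class that ZFP36 proteins bind, were higher at 1 h in 5 of the 8 measured, out of 19 listed, against 1.58% of all genes. They included Fos, Arc, Dusp1 and Ier2, all immediate early genes, and a transcript could enter this count through its 1 h reads alone. The list was also chosen with earlier results of these data known. Its counts and medians thus describe the listed genes only, and do not show how transcripts with AU-rich elements behaved as a class. Ier2 had 3, 41 and 9 reads, a ratio of 12.2 at 1 h (3.89–61.5). From 1 h to 6 h, 4 were lower, against 4.63% of all genes: Dusp1 by 6.75-fold (5.34–8.65), Ier2 by 4.30-fold (2.06–10.1) and Fos by 3.12-fold (2.89–3.37), while Arc stood at 0.0713 of its 1 h level (0.0504–0.0982). At 6 h against 0 h 2 of the 8 passed as higher, against 4.92% of all genes: Fos and the clock gene Per1, at 2.39 (1.89–3.04). The median log2 ratio was 2.25 at 1 h, 0.67 at 6 h and -0.92 at 6 h against 1 h, beside 0.01, -0.00 and 0.01 over all measured genes. Tnf, Il1b, Csf2 and Ccl2, the cytokine transcripts best known as ZFP36 targets, had no read in any library.

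Among 16 partners of GADD45 proteins in stress signalling and demethylation 13 were measured, and none passed at 1 h, while 1 was higher at 6 h against 0 h and 1 at 6 h against 1 h. At 6 h against 0 h the cell cycle kinase Cdk1, listed as Cdc2a, had 27, 50 and 61 reads, with a ratio of 2.14 (1.34–3.50). Cdk1 is also 1 of 6 markers of dividing cells, of which 5 were measured. It was the 1 called higher among them at 6 h against 0 h, and their median log2 ratio was -0.30. At 6 h against 1 h the DNA dioxygenase Tet3, listed as D230004J03Rik, had 516, 342 and 667 reads, with a ratio of 2.07 (1.81–2.36). Of 20 p53 target genes other than the 8, 17 were measured, of which 1 was higher at 1 h, 2 at 6 h against 0 h and 3 at 6 h against 1 h, and none was lower. In these 3 comparisons 1.58%, 4.92% and 4.17% of all genes were higher. The median log2 ratios were -0.06, 0.07 and 0.05 for the GADD45 partners and 0.18, 0.23 and 0.01 for the p53 targets, beside 0.01, -0.00 and 0.01 over all genes. The kinase Plk3 was higher at 1 h, with 20, 50 and 39 reads and a ratio of 2.23 (1.30–3.95). The cell cycle inhibitor Cdkn1a, with 183, 256 and 513 reads, had a ratio of 2.65 at 6 h against 0 h (2.24–3.16), and Zmat3, an RNA-binding protein, had 278, 303 and 609 reads and a ratio of 2.07 (1.79–2.40). At 6 h against 1 h Zmat3, Cdkn1a and Sesn2 (a stress-induced sestrin; 108, 95 and 184 reads) had ratios of 2.13, 2.12 and 2.05. With scaling by the exonic read total instead, the ratios of Zmat3 and Cdk1 at 6 h against 0 h were 1.93 and 1.99, and all 4 of the calls at 6 h against 1 h (Tet3, Zmat3, Cdkn1a and Sesn2) came out between 1.92 and 1.99, so these calls depend on the scaling.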

How the data were processed

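Sense reads per gene were used as the authors deposited them: raw counts of 35 bp SOLiD reads with at most 3 mismatches, per the file headers, by exon, intron, coding region, UTR and junction, with mm9 named in the submitters' processing notes. The aligner was not given in the sources used here. Adapters were ligated directionally, per the labels' protocols, to RNA depleted of ribosomal RNA. Repeated reads were kept (2.45, 2.60 and 2.33 reads per distinct position) and the protocol names no molecular identifiers, so intervals and floors cover counting error only and may be too narrow. A coverage signal per gene that the authors normalized to 10000000 reads was used as an alternative for the ratio. The interval set beside it came from read counts scaled by uniquely mapped reads.

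Counts were scaled with TMM factors (edgeR 4.0.16, R 4.3.3), which were 1.0236, 1.0226 and 0.9553. Ratios carry Clopper-Pearson 95% intervals (scipy 1.17.1), and odds ratios exact conditional intervals. With 1 library per time there were no residual degrees of freedom, so edgeR's test was not run and no p-value is given; no replicate could be left out. No value was fitted with DESeq2, whose size factors (DESeq2 1.42.0) were an alternative to TMM. Log2 ratios used a pseudocount of 0.5 reads. The scripts were tested on simulated data.

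The text names all 8 genes; of each list the called genes, at most 4 per direction and comparison, by the interval bound nearest to 1, and for each called member the 3 genes nearest in log2 ratios, some of which are not reported here. The members and lists were chosen with earlier results of these data known. Alternatives tried were total exonic scaling, DESeq2 size factors, the authors' coverage, a minimum of 0 or 50 reads, a 1.5-fold threshold, intronic scaling and, added after the data were seen, coding reads alone.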

Additional observations from a re-analysis of the deposited data

Results flagged for a closer look

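Reads beyond the annotated end of a gene are outside the comparisons above. In the 500 bp downstream of Btg2, on the same strand, there were 0 reads at 0 h, 9 at 1 h and 3 at 6 h. Here 9 is above the 3 reads set as the limit for a count of 0. Downstream of Gadd45b there were 0, 5 and 1 reads, and 5 is above the same limit. Passing this limit is not a comparison of 2 libraries, and no interval was computed for these reads. Neither gene had the 20 reads there that the 2-fold rule asks for, so no change is called. Downstream of the other 2 genes that were higher at 1 h, Btg1 had 4, 4 and 0 reads and Gadd45g 1, 2 and 0. Among 18441 of all 25562 genes with no downstream read at 0 h, 0.694% had over 3 at 1 h and 0.580% at 6 h. These genes were taken whether or not they were expressed, and the share among expressed genes was not computed. The next gene on the same strand lies 153488 bp from Btg2 and 137946 bp from Gadd45b. The source of these reads was not tested.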

How the results depend on the processing

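The 4 genes higher at 1 h, the 0 genes called at 6 h against 0 h, and the 3 genes lower at 6 h than at 1 h came out with the same counts under total exonic scaling, DESeq2 size factors, the authors' coverage, no minimum and a minimum of 50 reads. A 1.5-fold threshold gave 4 genes lower at 6 h than at 1 h, with Btg1 added. Coding reads alone, chosen after seeing the data, gave 3 genes higher at 1 h and moved Zfp36l2 at 6 h against 0 h to 0.509. The intronic call of Btg2 at 1 h held under scaling by intronic reads. In the pathway lists, scaling by total exonic reads gave 3 higher instead of 5 and 3 lower instead of 1 at 6 h against 0 h, and 0 higher instead of 4 at 6 h against 1 h; the genes added as lower were Dcps and Map2k6. The median log2 ratio of all genes moved by 0.24 at 1 h and 0.15 at 6 h with scaling by uniquely mapped reads, and by -0.10 at 6 h with total exonic scaling. Calls of genes under 20 reads, such as Gadd45a, Zfp36 and Zfp36l1, are limited by depth. No paired analysis was possible because each time has 1 library.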

Other observations

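The first exon of Zfp36l1 held 6, 2 and 2 reads at 0, 1 and 6 h, while its last exon held 4, 15 and 16. The odds of a read in the first rather than the last exon at 1 h were 0.0998 of those at 0 h (0.00715–0.819). The first exon has a mappability index of 0.629, and its reads fell below the minimum of 10 used for the other genes, so this value has no background share.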
